A study of Canis lupus familiaris with 6 samples.

Results

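Histone genes were examined in the HU-HSA-2 line. It derives from canine hemangiosarcoma, a malignant tumour of cells that line blood vessels. Poly(A)-selected RNA was sequenced from 3 libraries of cells given (R)-GNE-140, labelled GNE140, and from 3 control libraries, all of this 1 line. (R)-GNE-140 is a lactate dehydrogenase inhibitor, and that enzyme converts pyruvate to lactate and back. Per the labels' protocols, cells received the compound or DMSO for 72 hours in DMEM with serum, and the sources used here state no dose. The genes were chosen by symbol, as all rows of the deposited table with a histone gene name, and this gave 56 rows out of 20500. They carry 53 symbols, because H3C1 stands on 3 rows and H2AC5 on 2. Of the 56 rows, 43 are replication-dependent genes of the histone clusters (H1-1 to H1-6, H2AC, H2BC, H3C and H4C) and 13 are variants such as H2AZ1 and H3-3B. The choice by symbol used no measured value. The family was nevertheless taken up after H2AC17 was known to be lower in GNE140 cells, so the values of H2AC17 are given as a description and support nothing.

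Histones package DNA: H2A, H2B, H3 and H4 form the nucleosome core, and H1 binds the linker DNA between cores. Replication-dependent histone genes are transcribed mainly in S phase, and most of their mRNAs end in a stem-loop and carry no poly(A) tail, so that poly(A) selection captures them poorly. Most variant genes are expressed through the cell cycle, and most of their mRNAs are polyadenylated like other messages. The TPM of a replication-dependent gene in these libraries is therefore that of its polyadenylated or otherwise captured transcripts.

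Levels are in TPM, a transcript abundance scaled per gene length and to the same total in each library. Differences are GNE140 minus control on log2(TPM + 1), which understates the change of low genes. They come from a limma fit to the 10874 genes with a mean of at least 1 TPM. A gene was called at a Benjamini-Hochberg adjusted p under 0.05 over all of them. TPM keeps no read depth, so depth is unknown and no counting interval can be given. Separate cultures are not stated for the replicates, so the spread behind the p-values is that between these libraries and may be technical.

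Variants carried nearly all histone TPM. Replication-dependent genes made up 4.02%, 3.70% and 4.15% of it in GNE140 libraries, against 4.55%, 4.26% and 4.27% in controls. These shares include H2AC17, so nothing is read from the gap between the groups. All histone rows together took 0.405% to 0.416% of the library in GNE140 cells and 0.430% to 0.454% in controls. H2AZ1 alone held 49.5% ± 2.06 of the histone TPM in GNE140 cells and 52.2% ± 1.65 in controls (SD, n = 3 each). It stood at rank 79 in the table by mean TPM over the 6 libraries. Only 6 of the 56 rows, all of them variants, had a mean of at least 100 TPM.

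Of the 43 replication-dependent rows, 25 passed the filter on low values and were tested, 12 were above 0 but below the filter, and 6 were listed at 0 in all 6 libraries. H2AC17 was past the threshold of the fit, which was known when the family was chosen, so it is left out of the counts that follow and nothing is read from its call. Of the other 24, 0 were called in either direction by limma. Among all 10874 genes tested, 1.72% were called lower and 1.31% higher, 3.03% in all. At an unadjusted limma p under 0.05, 4 of the 24 were lower and 1 was higher. The unadjusted shares over all genes were 9.16% lower and 8.75% higher. The 3 GNE140 values lay wholly below the 3 control values for 3 of the 24 (H2BC21, H2BC26 and H1-3), and wholly above for 0. Over all genes tested the groups lay apart in this way in 11.8% (lower) and 11.2% (higher), 23.1% in all. The median log2 difference of the 24 was 0.008, against 0.004 over all genes tested, and 12 had a negative and 12 a positive difference. The spread within a group was wide: the median residual SD was 0.420 on the log2 scale, against 0.0946 over all genes tested. The median level of the 24 was 4.59 TPM, against 21.6 TPM over all genes tested. Over both classes, 3 tested genes had a mean of at least 1 TPM in 1 group alone, H3C4 in GNE140 cells and H2BC26 and H2BK1 in controls. H2BC26 is thus among the 3 rows apart and the 4 lower at an unadjusted p after passing the filter only through its control values. Nothing is read from its place in those counts.

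**Figure D1:**
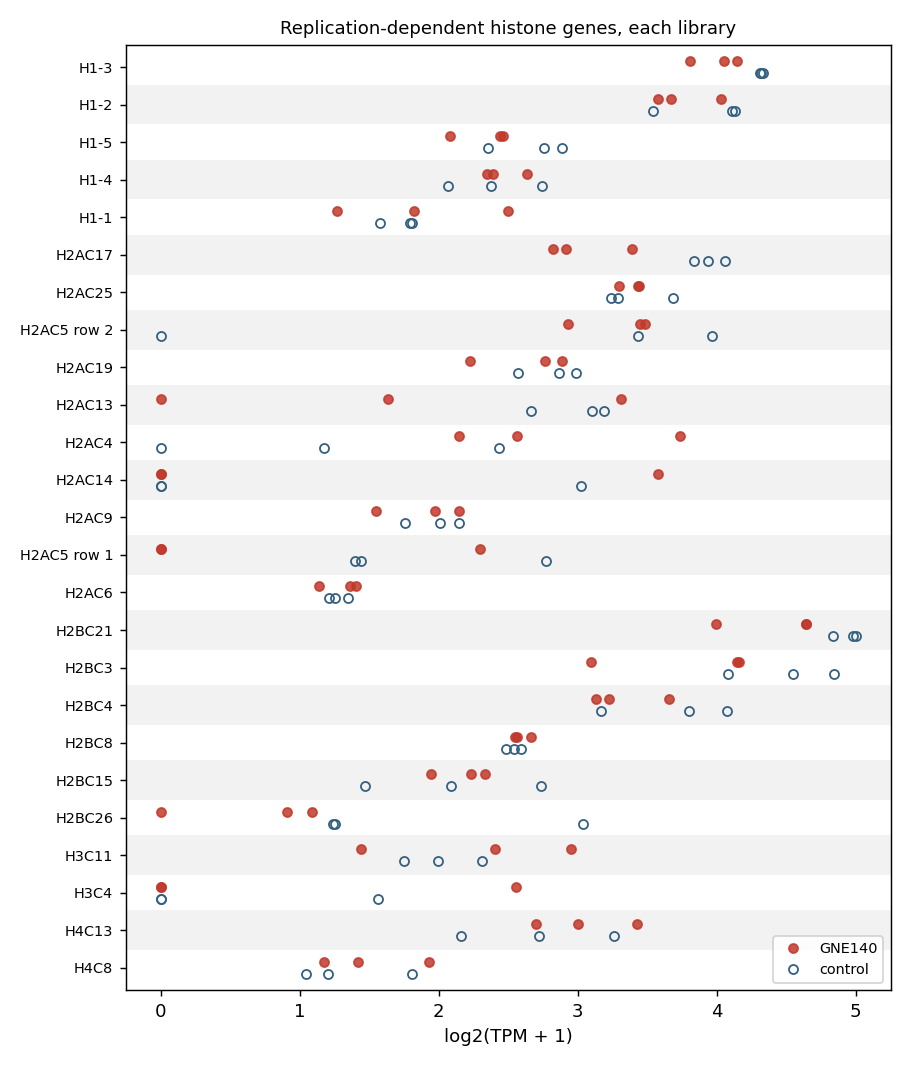
Each point is the log2(TPM + 1) of a tested replication-dependent histone gene in 1 library, with the 3 GNE140 libraries (filled) above the 3 control libraries (open). The 3 GNE140 points of H2AC17, H2BC21, H2BC26 and H1-3 lie to the left of their control points, and 7 of the 25 rows have at least 1 library at 0.

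H2A genes were represented by 15 replication-dependent rows, of which 10 were tested and 4 were listed at 0 throughout. H2AC17 (ENSCAFG00845015983), which encodes a core H2A, stood at 6.09, 6.54 and 9.51 TPM in GNE140 libraries, against 14.3, 15.7 and 13.3 TPM in controls. The groups did not overlap, and the means were 7.38 ± 1.86 TPM in GNE140 cells and 14.4 ± 1.20 TPM in controls (SD, n = 3 each). The log2 difference was -0.90, and it ran from -1.08 to -0.79 with 1 library left out. Its share of the replication-dependent H2A TPM was 12.2%, 14.6% and 16.5% in GNE140 libraries, against 27.2%, 26.2% and 22.4% in controls.

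Summed without H2AC17, the other H2A rows came to 43.9, 38.1 and 48.3 TPM in GNE140 libraries, against 38.4, 44.1 and 46.0 TPM in controls. The groups overlapped, with means of 43.4 ± 5.10 TPM in GNE140 cells and 42.8 ± 3.96 TPM in controls (SD, n = 3 each). H2AC25, the most abundant of these other rows, was at 8.85, 9.85 and 9.80 TPM in GNE140 libraries, against 8.76, 8.44 and 11.9 TPM in controls. For H2AC25 the log2 difference came to -0.01 (95% interval -0.29 to 0.26, limma adjusted p = 0.970). H2AC19 stood at 5.78, 3.68 and 6.41 TPM after GNE140 and at 6.94, 6.27 and 4.95 TPM in controls. H2AC9 and H2AC6 were lower in level, with means of 2.75 TPM (H2AC9) and 1.47 TPM (H2AC6) in GNE140 cells and of 2.94 TPM (H2AC9) and 1.42 TPM (H2AC6) in controls. H2AC21 was above 0 in 1 control library alone, at 0.62 TPM, and H2AC1, H2AC8, H2AC12 and H2AC16 were the rows at 0 throughout.

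Several H2A rows switched between 0 and several TPM from one library to the next. H2AC14 was at 10.9, 0 and 0 TPM in GNE140 libraries 1 to 3 and at 7.15, 0 and 0 TPM in control libraries 1 to 3. H2AC13 was at 0, 8.93 and 2.11 TPM in GNE140 libraries, against 5.35, 8.10 and 7.61 TPM in controls (log2 difference -1.34, limma adjusted p = 0.320). H2AC4 was at 3.42, 4.90 and 12.4 TPM in GNE140 libraries, against 0, 4.41 and 1.26 TPM in controls. The groups of H2AC4 overlapped, and its log2 difference of 1.61 did not pass (SE 0.57, limma adjusted p = 0.170).

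The 2 rows of H2AC5 also varied between libraries, and the row given first here was the higher only in control replicate 1. One row was at 0, 0 and 3.91 TPM in GNE140 libraries, against 5.83, 1.63 and 1.71 TPM in controls. The other was at 9.89, 6.64 and 10.2 TPM in GNE140 libraries, against 0, 9.82 and 14.7 TPM in controls. Neither row separated the groups, and the log2 differences were -1.10 and 0.82. Together the 2 rows summed to 9.89, 6.64 and 14.1 TPM in GNE140 libraries, against 5.83, 11.45 and 16.4 TPM in controls. Reads from near-identical gene copies may be divided among them, which makes the values of single H2A rows uncertain. All H2A rows together summed to 50.0, 44.7 and 57.8 TPM in GNE140 libraries against 52.7, 59.8 and 59.3 TPM in controls. Whether this sharing had a part in the level of H2AC17 was not tested.

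**Figure D2:**
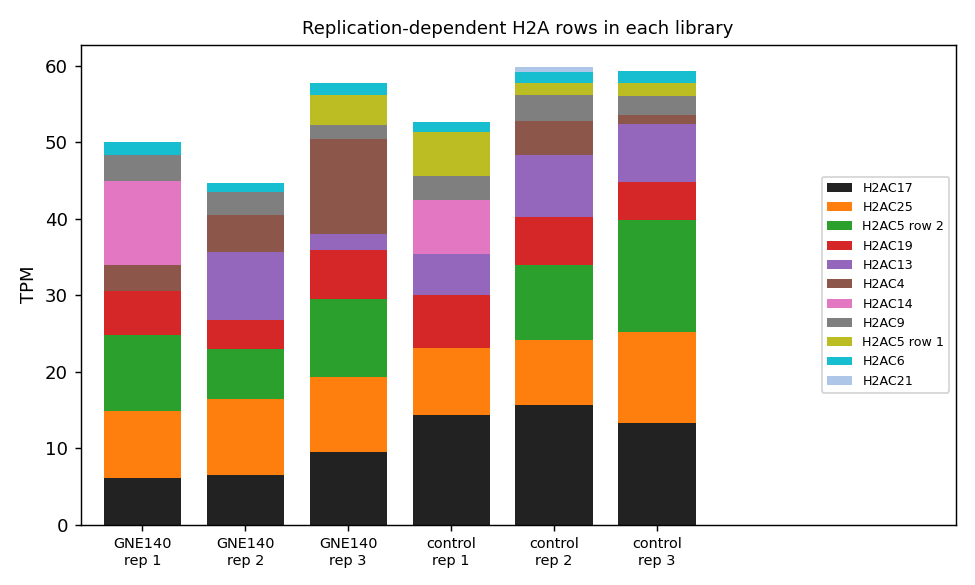
Stacked bars give the TPM of each replication-dependent H2A row above 0 in each of the 6 libraries, with GNE140 libraries on the left and control libraries on the right. H2AC17 (black, at the base) is between 6.09 and 9.51 TPM in GNE140 libraries and between 13.3 and 15.7 TPM in controls, while H2AC14 appears only in replicate 1 of each group.

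H2B genes had the highest mean summed level of the 5 replication-dependent families in both groups. The 11 H2B rows, of which 6 were tested, summed to 58.1, 48.2 and 55.0 TPM in GNE140 libraries, against 87.6, 67.6 and 72.8 TPM in controls. The groups did not overlap, with means of 53.8 ± 5.04 TPM in GNE140 cells and 76.0 ± 10.4 TPM in controls (SD, n = 3 each), a log2 ratio of means of -0.50. No test was run on a sum, because its members were chosen with earlier results known.

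The 3 most abundant H2B rows each had a lower mean in GNE140 cells, and none of them passed alone. H2BC21 (ENSCAFG00845011803), the most abundant replication-dependent histone gene here, was at 24.0, 14.9 and 24.0 TPM in GNE140 libraries, against 30.5, 31.0 and 27.5 TPM in controls. Its groups did not overlap, and the log2 difference was -0.51 (SE 0.16, limma adjusted p = 0.122), or -0.29 without GNE140 replicate 2. H2BC3 was at 16.7, 16.9 and 7.55 TPM in GNE140 libraries, against 22.4, 15.9 and 27.7 TPM in controls. The 2 groups of H2BC3 overlapped, and the log2 difference of -0.69 did not pass (95% interval -1.32 to -0.06, limma adjusted p = 0.233). It was -0.34 without GNE140 replicate 3. H2BC4 was at 8.34, 7.76 and 11.6 TPM in GNE140 libraries and 15.8, 12.9 and 8 TPM in controls, again with overlap (log2 difference -0.34, limma adjusted p = 0.471).

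Less abundant H2B rows varied. H2BC8 was the steadiest, at 5.34, 4.92 and 4.86 TPM in GNE140 libraries and 4.82, 4.60 and 5.03 TPM in controls. It had a log2 difference of 0.05 (95% interval -0.17 to 0.27). H2BC15 averaged 3.53 ± 0.613 TPM in GNE140 cells and 3.56 ± 1.96 TPM in controls (SD, n = 3 each). H2BC26 was at 0.88, 0 and 1.13 TPM in GNE140 libraries, against 7.23, 1.36 and 1.38 TPM in controls, so 1 control library stood apart from the other 2 (log2 difference -1.18, limma adjusted p = 0.228). H2BC19, H2BC13 and H2BC14 stayed below the filter, and H2BC1, a testis-specific H2B in other mammals, and H2BC2 were listed at 0 in all 6 libraries.

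Linker histone genes of the cluster, H1-1 to H1-6, summed to 33.8, 43.6 and 40.6 TPM in GNE140 libraries, against 46.6, 42.2 and 49.7 TPM in controls, and the groups overlapped. H1-3 (ENSCAFG00845026211) was at 13, 16.7 and 15.6 TPM in GNE140 libraries, against 19.2, 18.9 and 18.8 TPM in controls. Its groups did not overlap, and the log2 difference of -0.32 did not pass (SE 0.09, limma adjusted p = 0.101). H1-2 was at 10.95, 15.4 and 11.7 TPM in GNE140 libraries and 16.2, 10.6 and 16.6 TPM in controls, with overlap. H1-5 averaged 4.06 ± 0.723 TPM in GNE140 cells and 5.42 ± 1.17 TPM in controls (SD, n = 3 each). H1-4 averaged 4.51 ± 0.600 TPM in GNE140 cells and 4.36 ± 1.27 TPM in controls, and H1-1 averaged 2.87 ± 1.64 TPM in GNE140 cells and 2.32 ± 0.286 TPM in controls (SD, n = 3 each). None of H1-1, H1-2, H1-4 and H1-5 passed. H1-6, the linker histone of the testis in other mammals, was at 0 to 0.26 TPM in GNE140 libraries and 0.23 to 1.40 TPM in controls and was not tested.

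H3 and H4 cluster genes had the lowest mean summed levels of the families. The 7 H3 rows summed to 11.6, 1.71 and 8.57 TPM in GNE140 libraries, against 4.32, 3.97 and 3.73 TPM in controls. The 4 H4 rows summed to 9.34, 13.3 and 10.8 TPM in GNE140 libraries, against 7.65, 9.67 and 8.12 TPM in controls. Both sums overlapped between the groups. H3C11 was at 6.74, 1.71 and 4.29 TPM in GNE140 libraries and 2.36, 3.97 and 2.99 TPM in controls (log2 difference 0.25, limma adjusted p = 0.763). H4C13 was at 7.01, 9.77 and 5.49 TPM in GNE140 libraries and 3.46, 8.61 and 5.61 TPM in controls (log2 difference 0.33, limma adjusted p = 0.584). H4C12 was at 0.60 to 2.46 TPM in GNE140 libraries and 0 to 1.33 TPM in controls, H4C16 at 0 to 1.69 TPM in GNE140 libraries and 0 to 1.56 TPM in controls, and H3C10 was above 0 only in control replicate 3, at 0.74 TPM. These were not tested. H4C8 averaged 1.91 ± 0.803 TPM in GNE140 cells and 1.62 ± 0.777 TPM in controls (SD, n = 3 each). H3C4, like H2AC14, was above 0 only in replicate 1 of each group, at 4.87 TPM in the GNE140 library and 1.96 TPM in the control library. The 3 rows of H3C1 and the row of H3C12 held the same 6 values, 1.07 TPM in GNE140 replicate 3 and 0 elsewhere, and are not separate measurements. H2BC13 and H2BC14 likewise shared 1 set of values.

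Summed over all 43 rows, the replication-dependent genes stood at 163, 152 and 173 TPM in GNE140 libraries, against 199, 183 and 194 TPM in controls. The sums did not overlap between the groups, and their means were 162 ± 10.6 TPM in GNE140 cells and 192 ± 7.94 TPM in controls (SD, n = 3 each), a log2 ratio of -0.24. Without H2AC17 the sums were 157, 145 and 163 TPM in GNE140 libraries, against 185, 168 and 180 TPM in controls, a log2 ratio of -0.20. As a description of the families, H1 and H2B had lower mean sums in GNE140 cells, while H3 and H4 had higher ones. The H3 sum counts the repeated value of H3C1 and H3C12 once per row. In GNE140 replicate 2 it was 1.71 TPM, below every control. The mean H2A sum with H2AC17 was lower, at 50.8 TPM in GNE140 cells and 57.3 TPM in controls. Without H2AC17 it was not, at 43.4 TPM in GNE140 cells and 42.8 TPM in controls.

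**Figure D3:**
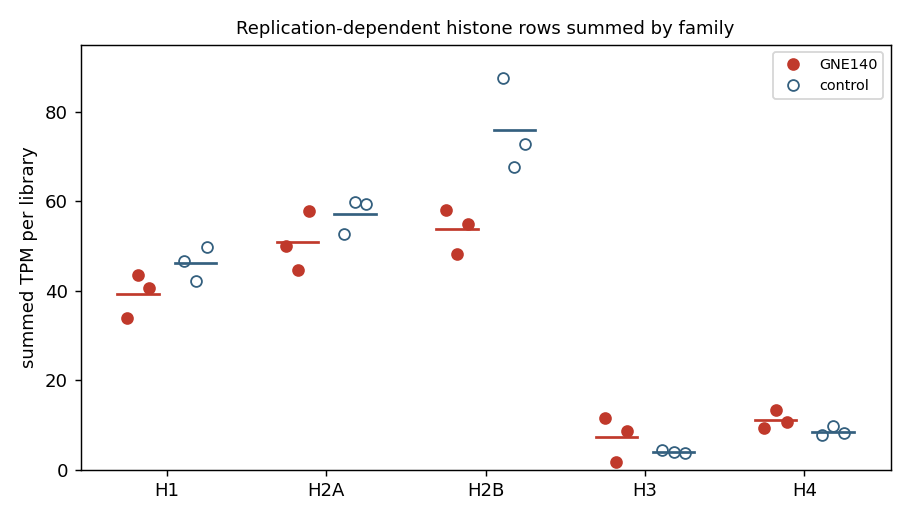
Each point is the summed TPM of the replication-dependent rows of a histone family in 1 library, GNE140 (filled) left of control (open), and lines mark group means. H2B sums are 48.2 to 58.1 TPM in GNE140 libraries and 67.6 to 87.6 TPM in controls without overlap, and the other 4 families overlap.

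Neighbouring genes of the cluster were compared with the help of the RefSeq gene order of the dog assembly UU_Cfam_GSD_1.0, in which 45 of the 53 symbols were found. The sources used here do not name the file's own build, so only the order was used. H2BC3 lies between H2AC4 and H2AC5, and their log2 differences had both signs: -0.69 for H2BC3, 1.61 for H2AC4, and -1.10 and 0.82 for the 2 rows of H2AC5. H2BC4, H2AC6 and H1-4 follow one another and had -0.34, 0.03 and 0.06. H1-3 is next to H2AC9, with -0.32 and -0.08. H3C11 is next to H4C13, with 0.25 and 0.33. H1-2 is next to H1-1, with -0.17 and 0.14, and H2BC15 is next to H1-5, with 0.07 and -0.34. None of the rows named here as neighbours passed the test.

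Among the 13 variant rows, 10 were tested, 1 (MACROH2A2) was below the filter at 0 to 0.43 TPM, and 2 were listed at 0 (H2BL1 and the oocyte linker histone H1-8). Of the 10, 1 was called higher (H3-3B), 0 were called lower and 9 did not pass, against 1.31% called higher and 1.72% called lower over all genes tested. The groups lay apart for 4 of the 10, H3-3A and H3-3B higher and H2AZ1 and H2AX lower, against 11.2% apart higher and 11.8% apart lower over all genes tested. The median log2 difference was -0.11, against 0.004 over all genes tested.

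The H3.3 genes encode the H3 variant that is deposited outside replication by the HIRA and DAXX-ATRX chaperones. H3-3B (ENSCAFG00845023788) was at 362, 345 and 361 TPM in GNE140 libraries, against 300.5, 293 and 313 TPM in controls. The groups did not overlap, and H3-3B rose to 356 ± 9.87 TPM in GNE140 cells, against 302 ± 9.95 TPM in controls (SD, n = 3 each), a log2 difference of 0.24 (SE 0.04, limma adjusted p = 0.0279). The call was kept without control replicate 3 and was lost without each of the other 5 libraries in turn, where the log2 difference was 0.22 to 0.26. It was also lost without the mean trend, and over all 16 alternatives the limma adjusted p ran from 0.00853 to 0.110. H3-3A, which encodes the same protein in mammals, was at 433, 445 and 428 TPM in GNE140 libraries, against 388, 424 and 416 TPM in controls. Its groups did not overlap either, and the log2 difference of 0.09 did not pass (95% interval -0.01 to 0.19, limma adjusted p = 0.357). The ratio of H3-3B to H3-3A was 0.836, 0.775 and 0.844 in GNE140 libraries, against 0.774, 0.691 and 0.751 in controls. The log2 difference of this ratio was 0.15 (exact permutation test, 2-sided, p = 0.1), and 0.1 is the smallest p possible with 3 against 3 libraries. Together the 2 genes summed to 795, 789 and 789 TPM in GNE140 libraries, against 689, 717 and 729 TPM in controls.

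H2A.Z, encoded by H2AZ1 and H2AZ2, marks nucleosomes beside active promoters. H2AZ1 (ENSCAFG00845024032) was at 1923, 2111 and 2049 TPM in GNE140 libraries, against 2253, 2329 and 2316 TPM in controls. The groups did not overlap, with means of 2028 ± 95.5 TPM in GNE140 cells and 2299 ± 40.2 TPM in controls (SD, n = 3 each). The log2 difference of -0.18 did not pass over all genes (SE 0.04, limma adjusted p = 0.0661). H2AZ2 was at 448, 399 and 401 TPM in GNE140 libraries, against 427, 403 and 486 TPM in controls, with overlap (log2 difference -0.07, 95% interval -0.24 to 0.09). The ratio of H2AZ1 to H2AZ2 overlapped between the groups, at 4.29, 5.29 and 5.11 in GNE140 libraries and 5.28, 5.78 and 4.76 in controls (exact 2-sided permutation p = 0.5).

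Other H2A variants were at intermediate levels. H2AX, the histone that is phosphorylated around DNA breaks and whose gene makes both stem-loop and polyadenylated mRNA, was at 175, 141 and 170.4 TPM in GNE140 libraries, against 199, 182 and 186 TPM in controls. The groups of H2AX did not overlap, and the log2 difference of -0.23 did not pass (SE 0.08, limma adjusted p = 0.166). H2AJ was at 82.9, 72.3 and 77.0 TPM in GNE140 libraries, against 96.6, 82.2 and 90.9 TPM in controls (log2 difference -0.21, limma adjusted p = 0.158). The highest GNE140 value of H2AJ exceeded the lowest control value. The ratio of H2AJ to H2AX was 0.480 ± 0.0314 in GNE140 cells and 0.475 ± 0.0208 in controls (SD, n = 3 each, exact 2-sided permutation p = 0.9). MACROH2A1, whose protein carries a large extra domain and is enriched on the inactive X chromosome, averaged 33.9 ± 2.28 TPM in GNE140 cells and 37.6 ± 4.29 TPM in controls (SD, n = 3 each, limma adjusted p = 0.457). H2BK1 was at 0 to 1.67 TPM in GNE140 libraries and 0.76 to 2.98 TPM in controls and did not pass. MACROH2A1 and H2BK1 were named after their values were seen, to extend the account of the tested variants.

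The replication-independent linker histone H1-10 overlapped between the groups. It was at 367, 344 and 399 TPM in GNE140 libraries, against 403, 316 and 440 TPM in controls (log2 difference -0.05, 95% interval -0.30 to 0.19).

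**Figure D4:**
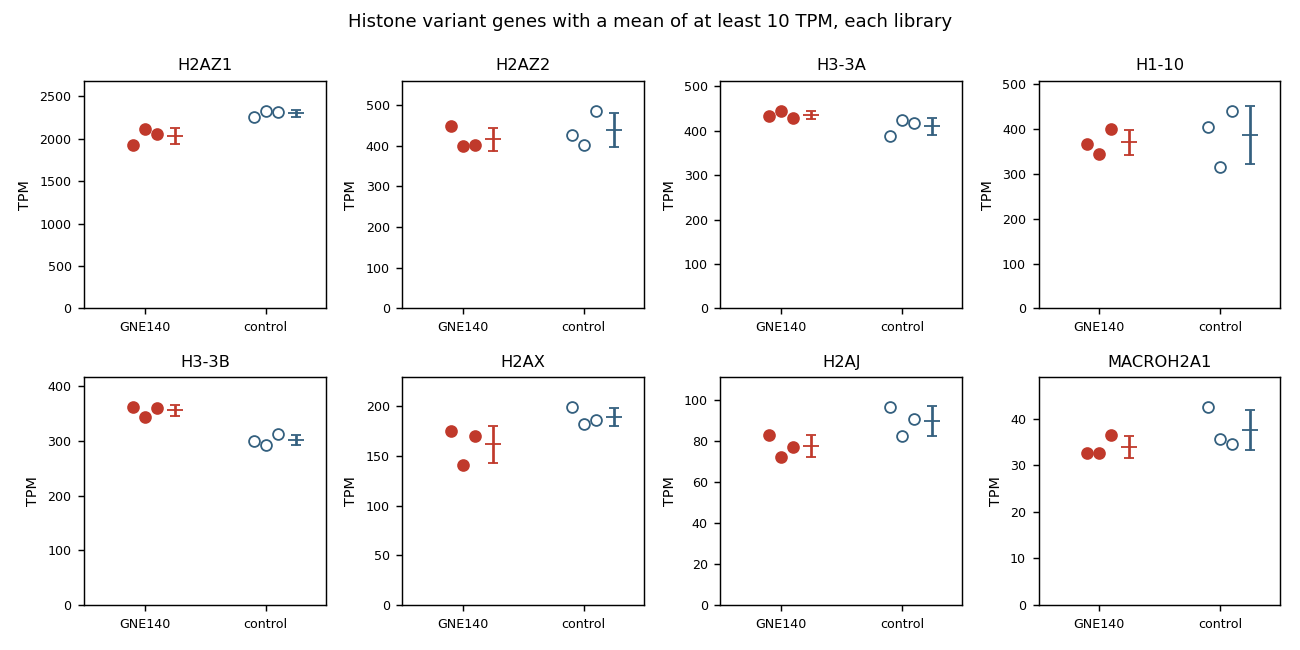
Points give the TPM of each library for 8 histone variant genes with a mean of at least 10 TPM, GNE140 left of control, with the group mean and SD (n = 3) beside them on axes that start at 0. H3-3B is at 345 to 362 TPM in GNE140 libraries above 293 to 313 TPM in controls, and H2AZ1 is at 1923 to 2111 TPM below 2253 to 2329 TPM.

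Genes that make, process or carry histones gave 0 calls by limma, where 3.03% of all genes tested were called and 17.9% had an unadjusted p under 0.05. In the list of histone mRNA 3′-end processing factors, 20 members were tested and 0 were called (median log2 difference -0.01). Before adjustment, 1 had a limma p under 0.05 and was higher, and 2 were lower. SLBP, the stem-loop binding protein that replication-dependent histone mRNAs need, was at 112, 115 and 110.4 TPM in GNE140 libraries, against 105, 101 and 97.96 TPM in controls. Its groups did not overlap (log2 difference 0.15, limma adjusted p = 0.126). CSTF2T and CPSF2, both subunits of mRNA cleavage complexes, stood at log2 differences of -0.23 and -0.13, and neither passed. The polyadenylation list had 12 tested members, of which 0 were called and 1 was higher at an unadjusted p under 0.05 (median 0.01). That gene, the poly(A) polymerase PAPOLG, was at 6.23, 5.67 and 6.64 TPM in GNE140 libraries, against 4.51, 5.25 and 4.58 TPM in controls. PAPOLG did not pass over all genes (log2 difference 0.31, limma adjusted p = 0.148), nor did RBBP6 (0.09) and PABPC4 (-0.08).

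For histone transcription factors, 11 members were tested, with 0 called and 0 at an unadjusted limma p under 0.05 (median 0.03). NPAT, the coactivator of replication-dependent histone genes, averaged 7.27 ± 0.641 TPM in GNE140 cells and 6.95 ± 0.199 TPM in controls (SD, n = 3 each). YY1, NFYB and NFYA, which bind histone and other promoters, had log2 differences of 0.13, 0.26 and 0.09. Of 27 histone chaperones tested, 0 were called and 3 were higher at an unadjusted limma p under 0.05 (median 0.01). Over all genes tested, 8.75% were higher at that level, so nothing is read from this count. The 3 were SPTY2D1 (0.23), an H3-H4 chaperone, DAXX (0.22), a chaperone of H3.3, and SUPT6H (0.21), which handles nucleosomes during transcription. Of 29 S-phase genes tested, 0 were called (median -0.01). Before adjustment 2 higher and 3 lower genes had a limma p under 0.05, against 8.75% and 9.16% over all genes tested. SLBP, also in the list of 3′-end processing factors, is 1 of the 2 higher genes. The groups lay apart higher for 3 and lower for 6 of the 29, against 11.2% and 11.8% over all genes tested. PCNA, the replication clamp, averaged 144 ± 3.02 TPM in GNE140 cells and 161 ± 11.9 TPM in controls, and the checkpoint mediator CLSPN averaged 24.5 ± 0.782 TPM in GNE140 cells and 21.6 ± 0.830 TPM in controls (SD, n = 3 each).

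**Figure D5:**
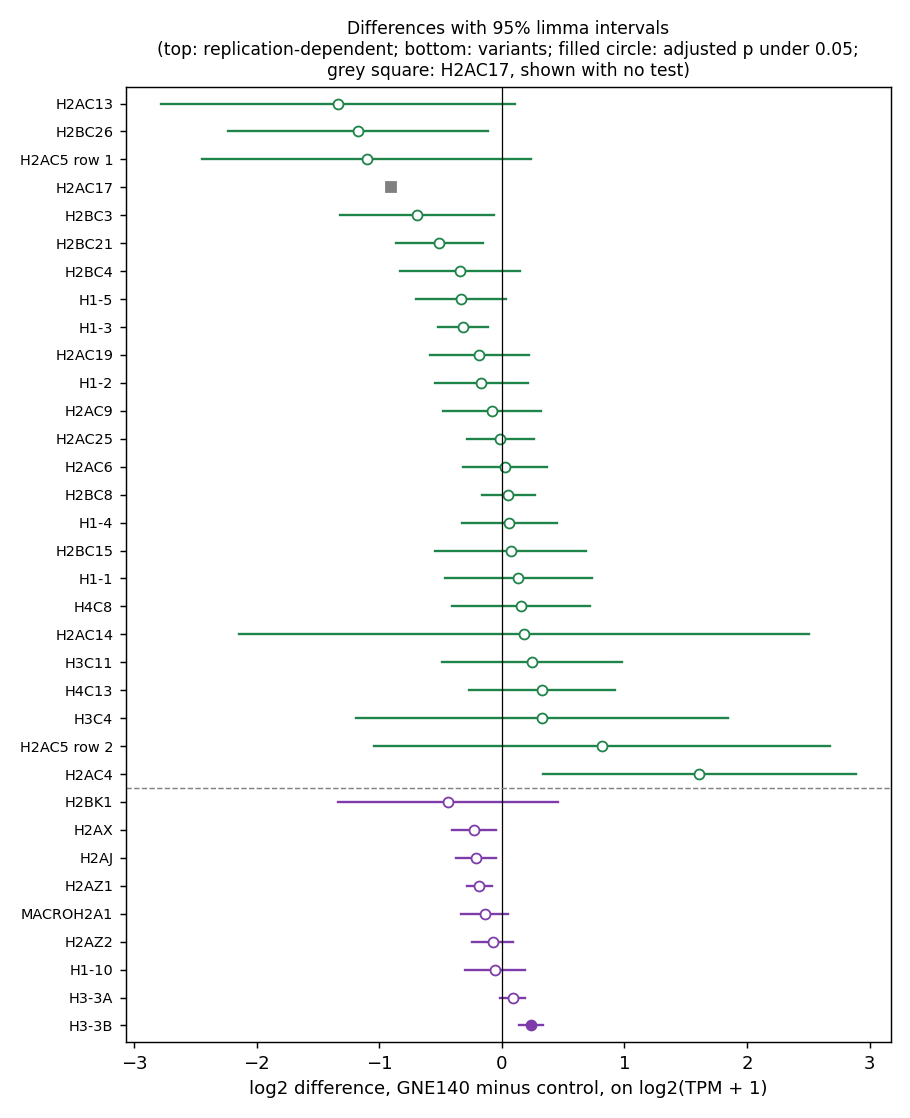
Points give the log2 difference, GNE140 minus control, on log2(TPM + 1) for 34 tested histone genes, with 95% limma intervals, replication-dependent genes above and variants below the dashed line. H3-3B (0.24) is the filled circle, with an adjusted p under 0.05, and H2AC17 (-0.90) is drawn as a square without an interval.

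The cell type named in the labels was checked against markers. Of 17 endothelial markers, 15 had a mean of at least 1 TPM, including the adhesion molecule PECAM1 at 317 TPM in GNE140 cells and 347 TPM in controls. VWF, another defining endothelial gene, was near 0 in both groups. The endothelial sum was 1583 to 1703 TPM in GNE140 libraries and 1796 to 1992 TPM in controls, with 0 of 15 called by limma. The groups lay apart lower for 5 of the 15 and higher for 1, against 11.8% and 11.2% over all genes tested. At an unadjusted limma p under 0.05, 4 were lower and 1 was higher, against 9.16% and 8.75% over all genes tested. The log2 differences were -0.27 for ROBO4, -0.19 for EMCN and 0.51 for FLT1, which are endothelial surface proteins. Fibroblast and smooth muscle markers summed to 7.83 to 10.7 TPM in GNE140 libraries and 5.63 to 7.05 TPM in controls (0 of 3 tested called, COL3A1 at 0), with log2 differences of 0.50 for COL1A1, 0.34 for PDGFRA and 0.27 for ACTA2. Leukocyte markers summed to 8.05 to 9.80 TPM in GNE140 libraries and 7.71 to 8.04 TPM in controls (0 of 2 tested called, CD3E at 0), with log2 differences of 0.33 for CD14 and -0.16 for CD68. The groups lay apart higher for 2 of the 3 tested fibroblast and smooth muscle markers and 1 of the 2 leukocyte markers, and lower for 0. The same numbers were higher at an unadjusted limma p under 0.05. Over all genes tested these shares were 11.2% (apart higher) and 8.75% (higher at that p). Only 3 of the 7 listed epithelial markers had a single row under their symbol, and these reached at most 0.26 TPM in sum. The part of these differences in the histone levels was not tested. In RNA from a whole culture, fewer cells in S phase and less histone RNA per cell cannot be told apart.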

How the data were processed

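The authors deposited 1 table of TPM for 6 libraries, rounded to 2 decimals. STAR, RSEM and edgeR 3.42.0 are named, per the submitters' processing notes, without their roles, and no genome build is named there. Each library sums to the same total within rounding. A separate list in the table gave Ensembl identifiers for symbols. Rows were read as deposited, and repeated symbols of histone genes were kept as separate rows. For the other lists only symbols that stood on a single row were used, so listed genes without one are left out.

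Rows averaging 1 TPM or more entered a limma fit (version 3.58.1, R 4.3.3) of log2(TPM + 1) on group alone, with a mean trend in the variance, 2-sided tests and Benjamini-Hochberg adjustment over all genes tested. This step was tested on simulated data. Sums over genes were given no test. Ratios of 2 genes were compared by exact permutation.

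The members and lists were chosen with earlier results of these data known. The named genes were all tested replication-dependent members, variants that were called, lay apart or were among the 8 most abundant, and from each other list called genes, the 3 smallest p, SLBP and NPAT. A gene that this rule picks is not reported here. Unnamed LOC loci are not analysed here. Alternatives covered pseudocount, filter, scaling, variance model, replicate block, repeated rows and each library left out. Figures used matplotlib 3.10.9.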

Additional observations from a re-analysis of the deposited data

How the results depend on the processing

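The number of genes called among all genes tested, 329, was 168 without the filter, 159 without the mean trend and 163 with replicate number as a block, and ran from 74 to 185 with 1 library left out. The replication-dependent count of 1, which is H2AC17, became 0 without the filter, with the replicate block, without control replicate 1 and without GNE140 replicate 2, and was 0 to 1 with 1 library left out. The variant count of 1 became 0 without the mean trend and was 0 to 1 with 1 library left out. The cause was not tested. Same-numbered libraries had deviations correlated at 0.0358, 0.00927 and -0.0977, so no pairing by replicate number was seen over all genes tested. H2AC14 and H3C4 were nevertheless above 0 only in replicate 1 of each group. With 3 libraries per group these correlations cannot show that the libraries were unpaired.

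Under the alternatives run for them, the log2 ratio of means ran from -0.288 to -0.194 for the replication-dependent sum and from -0.112 to -0.0738 for the variant sum. All lay within 1 SD, pooled within groups on the log2 scale, of the value reported. Leaving out 1 of 3 libraries can hardly move a mean further than that, so this limit is no test of those fits. Of 34 named histone genes, 21 kept their sign under every alternative run, and 0 gained a call. The sign of H2AC6 turned under quantile normalization (-0.0731). Signs of low or small differences turned with 1 library left out, where ranges were -0.104 to 0.238 for H1-4, -0.181 to 0.434 for H1-1, -0.0944 to 0.128 for H2AC25, -0.414 to 1.57 for the second H2AC5 row, -0.314 to 0.0174 for H2AC19, -1.01 to 1.19 for H2AC14, -0.211 to 0.0880 for H2AC9, -0.0242 to 0.110 for H2AC6, -0.243 to 0.390 for H2BC15, -0.0986 to 0.658 for H3C11, -0.0553 to 0.386 for H4C8, -0.191 to 0.0477 for H1-10 and -0.133 to 0.0026 for H2AZ2. Unknown depth limits all low values.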
